A study of Schizosaccharomyces pombe with 3 samples.

Results

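The long intergenic region features of a fission yeast microarray were examined for binding of Ssn6, a subunit of a transcriptional corepressor. Members were the features of Schizosaccharomyces pombe whose spot name carries the term longIGR and does not end in the word missing. They numbered 165 of the 9983 features of the array, beside 4796 other intergenic features, called ordinary here. Each was printed in 2 spots, and all but 1, which has no name beyond the term, carry the name of a gene. The cells carried Ssn6 fused to green fluorescent protein (GFP) and were harvested in mid log phase from YES, a rich medium. DNA recovered with an antibody against GFP and input DNA were amplified and hybridised together to 3 two-colour arrays of 1 group. The labels place each array in a separate experiment but name no separate cultures, and no array of an untagged strain or a mock precipitate was analysed here. The arrays are called replicates 1, 2 and 3.

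Ssn6 acts with Tup11 and Tup12, the WD-repeat partners of the fission yeast corepressor. The complex does not read DNA sequence itself and is brought to genes by DNA-binding repressors. One of these is the GATA factor Fep1, which keeps iron uptake genes off when iron is plentiful. Corepressor binding is therefore usually looked for in the intergenic DNA before a gene. In a compact genome most such regions are short, and the few long ones hold long promoters, replication origins and noncoding transcripts.

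By the RefSeq annotation (assembly ASM294v3), the names of the members do point to genes beside long gaps. A total of 155 of the 165 names matched 1 gene, and the longer gap beside such a gene had a median of 3478 bases between coding sequences, against 1028 bases over 5144 genes. Gaps of at least 3000 bases lay beside 122 of the 155 genes (78.7%) and beside 334 of all 5144 (6.49%). The range was wide, from 147 to 9848 bases, so that the name does not guarantee a long gap in this annotation. The longer gap was upstream of 109 and downstream of 46 of the genes. It separated divergent genes in 78 cases, tandem genes in 67 and convergent genes in 10. The 155 genes pointed to 152 distinct gaps, so nearly every gap carried a single member and few were tiled. A long noncoding RNA was annotated in 149 of the gaps, a transposon long terminal repeat in 26 and a tRNA gene in 11. The positions of the printed DNA fragments and the authors' genome build were not given in the sources used here, so every gap below is read from the gene name alone and the fragment's place inside it is unknown.

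The gaps below are shown because the results turn on their features. The upstream gap of fio1 is shown for the ordinary intergenic feature of fio1, which stood high. It is not the longer gap beside fio1, which lies downstream. The longer gaps of SPAC1F8.08 and SPAC977.05c are those of long features that stood high. Those of sce3 and tgp1 (feature name SPBC1271.09) belong to long features that stood low. Each line gives 300 bases of RefSeq ASM294v3, plus strand, 5′ to 3′, from the stretch of the gap that holds the most GATA elements, with these in capitals. The letters searched were AGATAA and TGATAA on both strands (TTATCT and TTATCA), which do not overlap each other.
fio1, chrI:4234703-4235002: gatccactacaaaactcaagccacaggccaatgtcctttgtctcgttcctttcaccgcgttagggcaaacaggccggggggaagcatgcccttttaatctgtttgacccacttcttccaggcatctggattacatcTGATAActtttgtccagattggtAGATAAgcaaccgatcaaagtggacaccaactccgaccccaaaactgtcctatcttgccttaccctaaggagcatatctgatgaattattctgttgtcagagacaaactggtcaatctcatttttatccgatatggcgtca
SPAC1F8.08, chrI:105499-105798: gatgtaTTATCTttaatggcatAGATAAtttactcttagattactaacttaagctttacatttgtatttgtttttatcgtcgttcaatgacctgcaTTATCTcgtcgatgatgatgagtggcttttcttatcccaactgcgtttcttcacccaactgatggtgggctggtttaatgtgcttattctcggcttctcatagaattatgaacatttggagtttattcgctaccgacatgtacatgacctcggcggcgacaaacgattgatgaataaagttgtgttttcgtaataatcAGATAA
SPAC977.05c, chrI:36747-37046: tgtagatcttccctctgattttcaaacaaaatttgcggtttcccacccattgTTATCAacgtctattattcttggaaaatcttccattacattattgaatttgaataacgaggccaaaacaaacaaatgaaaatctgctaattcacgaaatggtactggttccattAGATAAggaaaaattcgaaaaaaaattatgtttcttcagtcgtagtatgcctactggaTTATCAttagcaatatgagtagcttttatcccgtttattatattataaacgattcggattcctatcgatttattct
sce3, chrII:1777922-1778221: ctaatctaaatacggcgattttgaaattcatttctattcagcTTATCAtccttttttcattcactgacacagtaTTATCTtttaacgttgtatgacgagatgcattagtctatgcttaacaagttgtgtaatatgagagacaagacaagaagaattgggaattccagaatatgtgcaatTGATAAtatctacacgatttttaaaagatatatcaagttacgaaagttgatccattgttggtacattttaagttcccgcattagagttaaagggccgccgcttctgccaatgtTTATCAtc
tgp1, chrII:352828-353127: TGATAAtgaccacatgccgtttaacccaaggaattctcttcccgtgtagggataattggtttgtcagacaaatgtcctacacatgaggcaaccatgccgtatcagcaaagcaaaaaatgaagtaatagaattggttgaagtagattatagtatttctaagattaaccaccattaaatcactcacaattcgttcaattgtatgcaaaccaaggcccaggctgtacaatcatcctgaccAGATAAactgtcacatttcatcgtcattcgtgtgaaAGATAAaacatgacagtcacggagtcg
The gap between fip1 and fio1, of 1142 bases, held 2 GATA elements, both shown. The gaps of SPAC1F8.08 (2661 bases), SPAC977.05c (3048 bases), sce3 (3116 bases) and tgp1 (4540 bases) held 9, 8, 12 and 8. GATA elements thus occurred in the gaps of features that stood high and of features that stood low. Over all 4304 gaps of at least 300 bases, 47.9% of 13858 windows of 300 bases held at least 1 element, against 42.9% of 1789 such windows in the members' gaps. The density was 2.22 per 1000 bases in all gaps and 2.00 in the members' gaps. The members' gaps had a median AT content of 67.2%, from 57.9% to 73.9%.

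The measured value is a log2 ratio of the 2 scanner channels of a spot, centred on the median of the array and averaged over the spots of a feature. Its direction is unsettled. By the labels Cy3 marked input and Cy5 precipitate with no dye swap, yet replicate 2 ran opposite to the others. Channel B over channel A was used on replicates 1 and 3, and channel A over channel B on replicate 2. This orientation was set together with the definition of the members and departs from the labels on replicate 2. The authors' deposited values came from the same numerator channels. They matched these within 0.006 on the log10 scale at 99.9%, 99.6% and 99.8% of the compared spots. They matched the other channel at 1.13%, 2.85% and 1.14%. The numerator is called the likely immunoprecipitate. The uniform reading, which takes channel B as numerator for every array, is given beside each main result. In it limma called 0 of the 3960 features measured on all 3 arrays, with 137 at an unadjusted p under 0.05, of which 2 were members.

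Long features gave signal more often than other intergenic features. Both channels had signal on all 3 arrays for 96 of the 165 members (58.2%), against 25.7% of other intergenic and 52.4% of coding and other features. On replicates 1, 2 and 3 a ratio was obtained for 138, 165 and 105 members. Of the members lacking a value, 51 were measured on 2 arrays and 18 on replicate 2 alone. Among spots with signal in the likely input channel, long ones were brighter than other intergenic ones. The medians were 1177 against 733 intensity units on replicate 1, 4538 against 2025 on replicate 2 and 2245 against 1484 on replicate 3. Such spots were 76.7% of long and 33.5% of other intergenic spots on replicate 1, and 56.1% and 27.1% on replicate 3. For the likely immunoprecipitate these shares were 86.4% and 62.6%, and 85.2% and 67.9%, so the medians compare unlike parts of the classes. The medians of the likely immunoprecipitate differed less on replicates 1 and 3, at 1812 against 1760 and 3125 against 3043. On replicate 2 they were 4542 against 2034. At 15 of the 165 members the likely immunoprecipitate exceeded the control limit, the 95th percentile of 1624 negative-control spots, on each of the 3 arrays. The same held for 238 of 4796 other intergenic and 211 of 5022 coding and other features. All 330 member spots lay in rows 20 and 21 of the print blocks, where 1386 of the 9596 other intergenic spots and no coding spot lay.

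**Figure D1:**
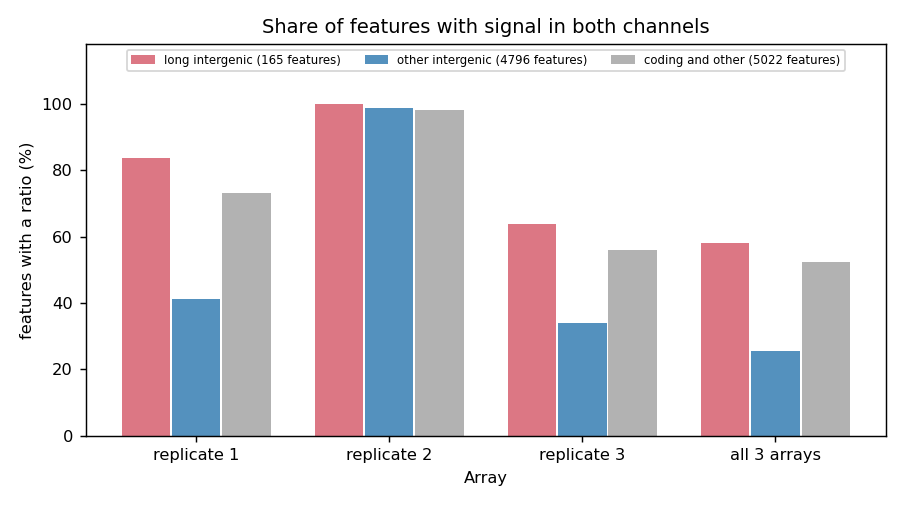
Share of features (percent, vertical axis) with signal in both channels on each array and on all 3 arrays, for long intergenic, other intergenic and coding or other features. On all 3 arrays 58.2% of the long, 25.7% of the other intergenic and 52.4% of the coding and other features were measured.

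As a class the long features did not stand as high as other intergenic features. Over the 96 members measured on all 3 arrays the mean log2 ratio was 0.05 and the median -0.05, between the other intergenic features (mean 0.51, median 0.39, 1231 features) and the coding and other features (mean -0.27, median -0.28, 2633 features). Among members the lowest, median and highest ratios were -3.21, -0.41 and 3.09 on replicate 1, -0.97, 0.25 and 2.98 on replicate 2, and -2.09, -0.02 and 4.37 on replicate 3. The class difference from other intergenic features was -0.73, -0.18 and -0.47 on replicates 1, 2 and 3, a mean of -0.46 ± 0.28 (SD, n = 3 arrays, as for every ± below). It was negative on 3 of 3 arrays. No p is given, since an exact sign-flip permutation over 3 arrays cannot go below 0.25. In the uniform reading the difference was -0.34 ± 0.47. Set against coding and other features, the members were higher by 0.19, 0.36 and 0.40, a mean of 0.32 ± 0.11.

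The size of the class difference moved with signal and with which features were counted. When features were compared within 10 equal bins of likely input intensity, the difference from other intergenic features was -0.31, -0.08 and -0.20, a mean of -0.20 ± 0.11. Against the other intergenic features of rows 20 and 21 it was -0.75, -0.16 and -0.47. Over all features measured on each array it was -0.77 and -0.48 on replicates 1 and 3 but 0.12 on replicate 2, where nearly every feature gave a ratio. The negative sign on replicate 2 therefore held for the features measured on all 3 arrays and not for the whole of that array. The 26 members with a numbered name did not separate from the 70 with a plain name, with a difference of 0.08, -0.54 and -0.25.

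**Figure D2:**
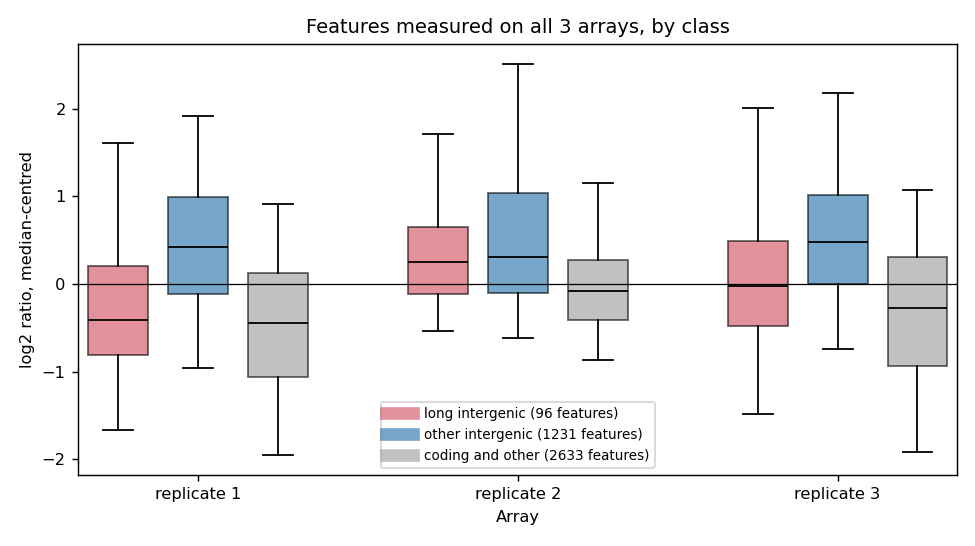
Log2 ratio (vertical axis) of the features measured on all 3 arrays, by array and class, with boxes from the 25th to the 75th percentile, a line at the median and whiskers from the 5th to the 95th. The medians of the long features, at -0.41, 0.25 and -0.02, lie below those of the other intergenic features on every array.

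Few members passed the test. Limma called 10 of the 96 members enriched (10.4%) and 2 depleted (2.08%) at an adjusted p under 0.05, against 8.26% and 5.61% of all 3960 features. Among the other intergenic features 20.4% were enriched and 0.812% depleted. The share of enriched members was thus near that of all features and below that of other intergenic features. A ratio above 0 on all 3 arrays was seen for 23 members (24.0%), for 24.7% of all features and for 49.9% of other intergenic features. A ratio below 0 on all 3 arrays was seen for 20 members (20.8%), for 26.6% of all features and for 9.1% of other intergenic features. The uniform reading put 6 members (6.25%) above 0 and 28 (29.2%) below 0 on all 3 arrays, against 10.2% and 15.7% of all features, and called none of them (2 at an unadjusted p under 0.05 in limma). Of the 10 enriched members 8 rested on a single spot on at least 1 array, as did 28 of all 96 members tested, and 2 of 68 members (2.94%) were enriched when 2 spots were required on every array, against 7.48% of all features. Without replicate 3 limma called 2 members enriched and 0 depleted, with 12 at an unadjusted p under 0.05, against 2.27% and 0.025% of all features. Without replicate 2 it called 10 (10.4%) and 9 (9.38%), against 8.41% and 13.9% of all features, and without replicate 1 it called 10 and 2, against 6.74% and 2.42%. With intergenic and coding features centred separately the split was 7 enriched to 12 depleted (7.29% and 12.5%, against 6.74% and 4.65% of all features). With each row of the blocks centred it was 9 to 6 (9.38% and 6.25%, against 6.69% and 3.96%).

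The highest member was that of SPAC1F8.08, an uncharacterised gene divergent from pdc101, which encodes a pyruvate decarboxylase. Its long feature had log2 ratios of 2.16, 2.98 and 2.75 on replicates 1, 2 and 3, a mean of 2.63 ± 0.42 (limma adjusted p = 0.000927). All 3 arrays were high, and the likely immunoprecipitate exceeded the control limit on each of them. On replicate 3 this rested on 1 spot, of 4492 units against a limit of 4451.7. The partner spot had 4141 units and no likely input signal. Likely input at the feature was 459 and 436 units on replicate 1 and 437 units on replicate 3. The medians of long spots with such signal were 1177 and 2245 units. The ordinary intergenic feature of the gene was as high, at 2.60 ± 0.58, as were its coding feature at 2.46 ± 0.43 and the intergenic feature of pdc101 at 2.54 ± 0.55, while the pdc101 coding feature had 0.54 ± 0.34 (adjusted p = 0.239). The longer gap beside the gene is the downstream one, a tandem gap of 2661 bases at chrI:104304-106964 with an annotated long terminal repeat and 2 long noncoding RNAs. High ratios at this locus therefore extended over 3 features that carry the gene's name. Its uniform-reading mean was 0.64 (limma adjusted p = 0.923).

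The member of fio1, the ferroxidase gene of reductive iron uptake, was enriched less than the ordinary intergenic feature of that gene. Its ratios were 0.89, 1.68 and 1.99, a mean of 1.52 ± 0.57 (limma adjusted p = 0.0142), against 2.68, 3.00 and 2.53 at the ordinary intergenic feature of fio1. The long feature was lower on each of the 3 arrays. At fip1, the iron permease gene that shares the promoter region, the intergenic feature had 2.92 ± 0.50 and the coding feature 2.38 ± 0.61. The coding feature of fio1 had 1.60 ± 0.29. The longer gap beside fio1 is not the fip1 gap printed above but the convergent one behind the gene, 4508 bases towards dal2 at chrI:4237508-4242015, and the dal2 coding feature had -0.37 ± 0.24 (limma adjusted p = 0.417). The intergenic feature of dal2 lacked replicate 1 and had 0.52 and 0.92 on the other arrays. In the uniform reading the fio1 long feature had 0.40 (limma adjusted p = 0.924). Its replicate 3 value came from 1 spot.

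A duplicated gap near the left end of chromosome I carried the most even values among the called members. The long feature of SPAC977.05c, a gene for a protein with a Vel1p domain, had 2.06, 1.89 and 2.05, a mean of 2.00 ± 0.10 (limma adjusted p = 0.00238). The replicate 3 value came from 1 spot, whose partner had no likely input signal. Likely input at its spots was 504 and 419 units on replicate 1 and 594 units on replicate 3. These lay below the medians of long spots with such signal, 1177 and 2245 units. The ordinary intergenic feature of the gene had 1.43, 1.40 and 1.42, lower on each array, and the coding feature 1.90, 1.99 and 0.34. The 3048-base gap at chrI:36383-39430 has a copy of 99.28% identity over 3050 bases at chrII:16596-19640. Another member, that of SPBPB2B2.14c, is named for a gene beside a gap of 3050 bases at chrII:4493323-4496372 with 99.21% identity over 3051 bases to the chromosome I gap. DNA from these places can hybridise to the same spot, so a ratio there is not assigned to 1 locus. The SPBPB2B2.14c feature had -0.05, 0.64 and 1.32, a mean of 0.64 ± 0.68 (limma adjusted p = 0.217), below the SPAC977.05c feature on every array. It was named here for that copy, after its values were seen. The annotation places SPBC1348.06C beside the chromosome II copy, and whether the array name SPAC1348.06c means that gene, and its feature the same duplicated DNA, was not tested. At SPAC1348.06c, a name with no match in the annotation, the long feature had 1.85, 1.20 and 1.13, a mean of 1.39 ± 0.40 (adjusted p = 0.0155), and its ordinary intergenic feature had 1.35 ± 0.35 (adjusted p = 0.0166). Uniform-reading means of the SPAC977.05c and SPAC1348.06c features were 0.74 and 0.59 (limma adjusted p = 0.871 and 0.853). In all, 14 of the 155 gaps had another match of at least 500 bases at 90% identity or more.

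A pair of called members had a mean set largely by 1 spot of replicate 3. In all, 7 of the 10 enriched members had a single spot on that array. Besides this pair they were those of SPAC1F8.08, SPAC977.05c, fio1, SPAC1348.06c and SPAC23D3.12. The long feature of csx2, listed in RefSeq as the centaurin gene cnt5, had 1.50, 0.63 and 4.04, a mean of 2.06 ± 1.77 (limma adjusted p = 0.0337). Its replicate 3 value came from a spot with 14421 units in the likely immunoprecipitate, whereas the partner spot had 3000 units and no likely input signal. At SPAC26H5.09c, an oxidoreductase gene, the long feature had 1.28, 0.46 and 4.37, a mean of 2.04 ± 2.06 (limma adjusted p = 0.0498), with single spots on replicates 1 and 3 and no signal in the partner spot on replicate 3. The SD was about as large as the mean in both, since replicate 3 stood far above the other arrays. The ordinary intergenic feature of csx2 was measured on replicate 2 alone, at 1.47, above the 0.63 of the long feature there. The coding feature of csx2 had -0.01 ± 0.42 and the ordinary intergenic feature of SPAC26H5.09c had 0.37 ± 0.87. Without replicate 3 both lost their call. Their uniform-reading means were 1.64 and 1.73 (limma adjusted p = 0.777 for both), the highest of the 10.

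At pho842 and ecm33 the long and the ordinary feature were both enriched. The long feature of SPAC23D3.12, which RefSeq calls pho842, an inorganic phosphate transporter, had 0.40, 1.56 and 1.89, a mean of 1.28 ± 0.78 (limma adjusted p = 0.0373). On replicate 1 its spots disagreed, at 0.90 and -0.10. Its replicate 3 value came from 1 spot of 20560 units, whose partner had no signal. The ordinary intergenic feature of pho842 had 1.62 ± 0.10 (adjusted p = 0.00616). The gap of 3161 bases separates it from ayr1, a reductase gene of phospholipid synthesis, whose own long feature (SPAC23D3.11) lacked replicate 1 and had 0.39 and 1.58 on replicates 2 and 3, below the pho842 feature on both. At SPAC1705.03c, the gene ecm33 for a leucine-rich cell surface protein, the long feature had 0.59, 1.15 and 1.50, a mean of 1.08 ± 0.46 (limma adjusted p = 0.0442), and its ordinary intergenic feature 1.37 ± 0.44. On replicate 1 the ecm33 long feature rested on 1 spot, whose partner had no likely input signal. The coding features of pho842 and ecm33 had 1.72 ± 1.73 and -0.27 ± 1.64 (limma adjusted p = 0.0562 and 0.751). In the uniform reading the pho842 and ecm33 long features had 0.25 and 0.31 (limma adjusted p = 0.942 and 0.923). Over 14 other processing settings the pho842 long feature lost its call in 7 and the ecm33 long feature in 12.

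The long feature of SPBC32H8.02c, the NEDD8 protease gene nep2, had 2.16, 1.24 and 1.10, a mean of 1.50 ± 0.58 (limma adjusted p = 0.0149). Each array had 2 spots, but on replicate 1 these disagreed, at 0.33 from 2619 units and 3.99 from 37531 units. Its ordinary intergenic feature, at 0.24, 0.22 and -0.69, lay below it on every array. At SPAP15E9.02c, a name with no match in the annotation, the long feature had 0.92, 1.96 and 1.35, a mean of 1.41 ± 0.52 (adjusted p = 0.0172), on 2 spots throughout that lay close together on each array. Its coding feature had 1.73 ± 0.68 (adjusted p = 0.00976), while its ordinary intergenic feature, at 0.80 ± 0.64, did not pass (adjusted p = 0.127). Uniform-reading means of the nep2 and SPAP15E9.02c features were 0.67 and 0.10 (limma adjusted p = 0.841 and 0.982). Of the 10 enriched members, 6 had likely immunoprecipitate above the control limit on every array. Among these 6, SPAC1F8.08 on replicate 3 and SPAC26H5.09c on replicate 1 (1959 units against 1958.65) lay barely above it. The exceptions, on 1 array each, were the features of csx2, SPAC977.05c, fio1 and SPAC1348.06c.

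The depleted members were those of sce3 and tgp1. That of sce3, a translation initiation factor gene, had -1.58, -0.97 and -2.09, a mean of -1.54 ± 0.56 (limma adjusted p = 0.0131), and its coding feature -0.39 ± 0.39 (adjusted p = 0.414). The ordinary intergenic feature of sce3 was measured on replicate 2 alone, at -0.66. The coding feature of the divergent neighbour SPBC18H10.05 was also depleted, at -1.16 ± 0.59 (adjusted p = 0.0406). The intergenic feature of that neighbour was not, at -0.35 ± 0.23 (limma adjusted p = 0.453). At tgp1, which encodes a glycerophosphodiester transporter of the phosphate regulon, the long feature had -2.34, -0.53 and -1.95, a mean of -1.61 ± 0.95 (limma adjusted p = 0.0211). The ordinary intergenic feature of tgp1 had -0.14, 0.74 and 0.03, above the long feature on each array, and the coding feature had -0.72 ± 0.59 (adjusted p = 0.155). At both long features the likely immunoprecipitate fell short of the control limit on replicates 1 and 3. The uniform-reading means were -0.90 and -1.25 (limma adjusted p = 0.791 and 0.777).

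**Figure D3:**
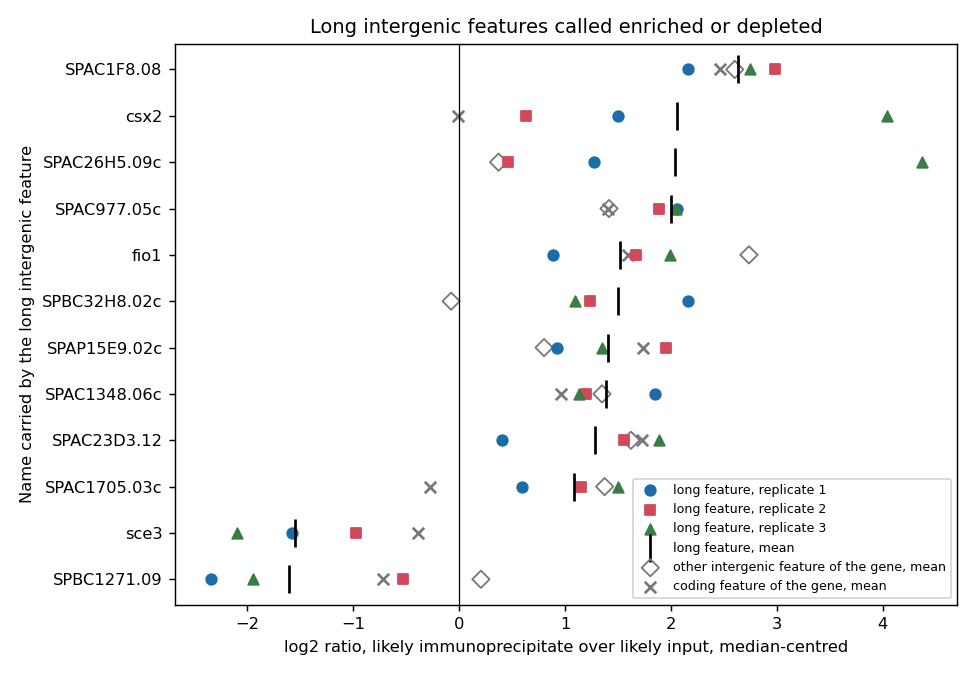
Log2 ratio (horizontal axis) of the 12 called long features on replicates 1, 2 and 3 (filled symbols) with their mean (bar), and the means of the ordinary intergenic and coding features of the same gene where these were measured on all 3 arrays (open diamonds and crosses). The csx2 and SPAC26H5.09c features reach 4.04 and 4.37 on replicate 3 alone, whereas SPAC1F8.08 and SPAC977.05c are high on every array.

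Within genes, long features stood below the ordinary intergenic feature that carries the same name. Both were measured on all 3 arrays for 48 genes. The long feature was lower by mean in 34 and higher in 14, and it was lower on each array in 27 and higher on each in 7. The mean difference was -0.40, -0.51 and -0.42 on replicates 1, 2 and 3, or -0.44 ± 0.06, and was negative on 3 of 3 arrays. On replicate 2 alone, which measured both features for 149 genes, it was -0.39. The uniform reading gave -0.10 ± 0.53, with 30 of 48 genes lower. Where the longer gap lay upstream of the gene (32 genes) the difference was -0.38 ± 0.15, and where it lay downstream (11 genes) it was -0.75 ± 0.20. On replicate 2 alone, over 96 and 46 genes, these were -0.49 and -0.25, the opposite order. Measured against the coding feature of the same gene, in 65 genes, the long feature differed by 0.02, -0.03 and 0.33, a mean of 0.11 ± 0.20, which is within the spread between arrays.

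Several ordinary features were enriched where the long feature was not. Among the 48 genes 15 had an enriched ordinary feature, and in 6 of these the long feature was enriched too. The next genes were named after their values were seen, from the top of the list of differences and for their roles. At ptc2, a protein phosphatase gene of the stress pathway, the ordinary feature had 2.23 ± 0.79 and the long feature -0.0018 ± 1.03. At SPAC750.06c, an uncharacterised gene near the right end of chromosome I, the values were 1.53 ± 0.36 and -0.92 ± 0.53, and its gap has 6 other matches in the genome. At agl1 (feature name agl), a maltose glucosidase gene, they were 1.79 ± 0.43 and 0.28 ± 0.19. At fet4, an iron and zinc transporter gene (feature name SPBP26C9.03c), they were 1.16 ± 0.20 and 0.27 ± 0.13, and at isp4, an oligopeptide transporter gene, 1.24 ± 0.64 and 0.38 ± 0.88. The long feature alone passed in 3 of the 48 genes. These were nep2, whose spots disagreed on replicate 1, SPAC26H5.09c, whose mean was set largely by 1 spot, and SPAP15E9.02c. Across the 48 genes the means of the features correlated at 0.37, and on replicate 2 across 149 genes at 0.59, over genes that share arrays and are not independent replicates.

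**Figure D4:**
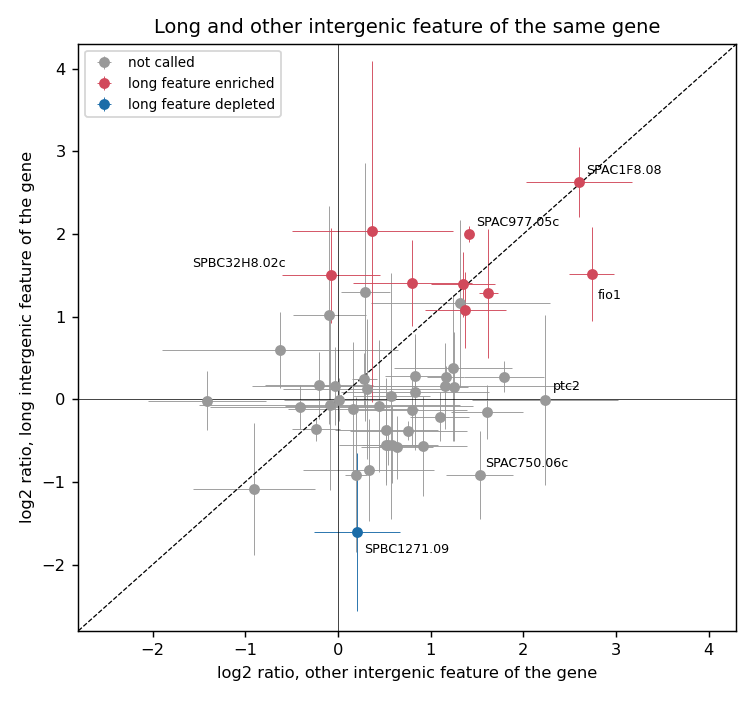
Mean log2 ratio of the long feature (vertical axis) against that of the ordinary intergenic feature of the same gene (horizontal axis) for 48 genes, with SD over 3 arrays as error bars and the line of equality dashed. Of the 48 points 34 lie below the line, and ptc2 and SPAC750.06c are far below it.

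Of the genes on a fixed list, chosen around repression, mating and flocculation, 8 carried a long feature. Those of fio1, sce3 and tgp1 are given above. The long feature of pfl7 (SPBC359.04c), a flocculin gene, had -0.85, 0.34 and -0.61, a mean of -0.37 ± 0.63 (limma adjusted p = 0.479), and its ordinary feature 0.52 ± 0.55. That of pfl4 (SPCC188.09c), another flocculin gene, had -0.78, -0.03 and -1.14, a mean of -0.65 ± 0.56 (adjusted p = 0.189). That of mbx2 (SPBC317.01), whose MADS-box protein activates flocculation genes, had -2.07, 0.17 and -0.35, a mean of -0.75 ± 1.17 (adjusted p = 0.242). None of the flocculation features passed, and their uniform-reading means were -0.60, -0.63 and -0.87. At fbp1, the glucose-repressed gluconeogenesis gene, the long feature lacked replicate 3 and had 0.21 and 0.74, while its coding feature had 1.03, 0.74 and 0.57. The intergenic feature of wwm3, which shares the 3393-base divergent gap with fbp1, had 1.67, 2.43 and 2.09 (mean 2.06 ± 0.38, limma adjusted p = 0.0026). At mei2, the switch gene of meiosis, the long feature was measured on replicate 2 alone, at -0.0017, against 1.34 for its ordinary feature on that array.

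Gaps that carried 2 members were rare, and in each of the 3 cases 1 of the members lacked an array. Beside the pho842 and ayr1 gap, the gap of 5203 bases between pfl7 and aat1, an amino acid permease gene, held the aat1 feature (SPBC359.03c) at -0.07 and 0.70 on replicates 1 and 2, above the pfl7 feature on both. In the gap of 6190 bases between mbx2 and rps1801 the feature of the ribosomal protein gene (rps18-1) had 0.09 and 0.21 on replicates 2 and 3, where the mbx2 feature had 0.17 and -0.35. The order of the mbx2 and rps1801 features thus turned between these arrays.

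Members measured on fewer arrays could not be tested. Of those on 2 arrays the highest means were 2.63 for SPBC9B6.13, 1.02 for lsd90 (SPBC16E9.16c), 0.98 for ayr1, 0.97 for gpa2, a G protein subunit gene of glucose sensing, and 0.93 for pil1 (SPCC736.15), an eisosome gene. The first of these joined -0.22 on replicate 2 with 5.49 on replicate 3, the latter from 1 spot of 37933 units whose partner had no signal. Single spots also gave lsd90 2.09 and ayr1 1.58 on replicate 3, and gpa2 1.83 on replicate 1. On replicate 2 the spots of lsd90 had -0.13 and 0.03, and the spots of gpa2 had 0.07 and 0.14. Among the highest of those on replicate 2 alone were pho1, the acid phosphatase gene, at 1.63, pgk1, the phosphoglycerate kinase gene, at 1.60, pmc1 (SPAPB2B4.04c), a calcium pump gene, at 1.24, and SPBC19C7.04c at 1.03. These values turn sign in the uniform reading, to -1.63, -1.60, -1.24 and -1.03, so their place depends on the reading of replicate 2. The ordinary intergenic features of pho1 and pgk1 had means of 1.82 and 3.10 over 3 and 2 arrays.

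Gap length was examined in the ordinary features, whose upstream gaps span short and long ones. Their mean log2 ratio was 0.20 where the gap upstream was under 500 bases (271 features), 0.54 at 500 to 1000, 0.69 at 1000 to 2000, 0.58 at 2000 to 3000 and 0.56 above 3000 bases (96 features). The enriched shares were 7.75%, 16.6%, 28.6%, 22.6% and 30.2%. On replicate 2 the mean reached 0.95 in the longest class, whereas on replicates 1 and 3 it was 0.27 and 0.46 there, under the 0.61 and 0.69 of the class of 1000 to 2000 bases. The 96 tested members, whatever their gap, had -0.28, 0.36 and 0.08, lower than the ordinary features of gaps over 3000 bases on every array. In the uniform reading the means by gap length were 0.15, 0.27, 0.18, 0.10 and -0.07, so the order depends on the reading of replicate 2.

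**Figure D5:**
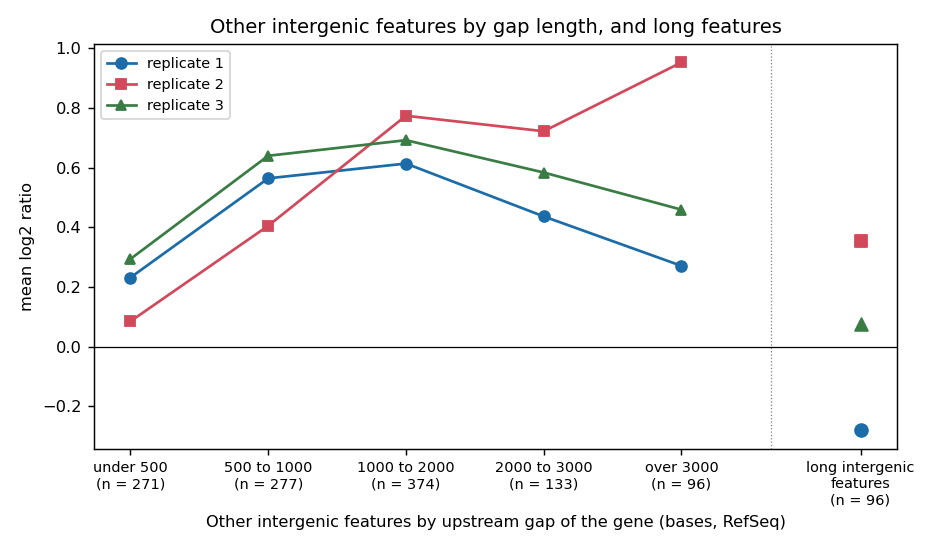
Mean log2 ratio (vertical axis) of ordinary intergenic features on each array by the length of the gap upstream of their gene (bases, RefSeq), and of the 96 long features at the right. Replicate 2 reaches 0.95 in gaps over 3000 bases, and the long features lie lower on each array.

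Among the members themselves the mean ratio was 0.06 for 46 tested members between divergent genes, -0.04 for 37 between tandem genes and 0.31 for 5 between convergent genes, fio1 among the last. It was 0.02 for 63 members with the longer gap upstream and 0.07 for 25 with it downstream. Members whose gap holds a long terminal repeat had 0.08 (15 members) and the others 0.02 (73 members). Across the 96 members the arrays correlated at 0.42 (replicates 1 and 2), 0.68 (1 and 3) and 0.51 (2 and 3), against 0.53, 0.71 and 0.64 across the other intergenic features. These correlations are over features of the same arrays and carry no test. The gas5 feature (SPAC11E3.13c), named after its values were seen, had 1 spot that set its mean. Its ratios were 3.09, 0.56 and 0.25, a mean of 1.30 ± 1.56 that did not pass (limma adjusted p = 0.103), and on replicate 1 the spots had 40989 and 2497 units.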

How the data were processed

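Per the labels' protocols, the arrays were scanned with ScanExpress and quantified with TIGR Spotfinder, and the deposited files give an intensity per spot for channels A and B. The authors also deposited log10 values, median-normalised in GeneSpring per the labels, which held 1 channel per array and no ratio. Software versions, background handling and the genome build were not given in the sources used here.

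Log2 ratios were computed from integrated intensity at spots with both channels above 0, centred on each array's median over feature spots, and averaged over the spots of a feature. No column belonged to a sample outside the 3 arrays. Features with a value on each array (3960) entered 1 limma fit against 0 (version 3.58.1, run under R 4.3.3), with moderated two-sided p-values adjusted by Benjamini-Hochberg over these features and a prior of 8.08 degrees of freedom and SD 0.55. The fit was tested on simulated data. The number of arrays limits the precision. Each p-value sets a mean against a spread that joins the feature's own 3 arrays with the prior pooled over features. Where a feature's own SD is far above 0.55, as at csx2 and SPAC26H5.09c, the spread used in the test is smaller than its own.

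The members, lists and orientation were chosen with earlier results of these data known. Named were all called members, the ordinary intergenic and coding features of their genes, the 5 highest members on 2 arrays and on replicate 2 alone, gaps with several members, and a fixed gene list (ste11, fbp1, tgp1, pho84, mei2, adh1, fio1, fip1, str1, str3, inv1, gld1, gsf2, pfl2 to pfl9, mbx2, cbf11, cbf12, fep1, loz1, atf1, pcr1, rst2, scr1 and sce3) where a long feature carries the name. Neighbouring genes of these gaps were named after their values were seen. One feature that this rule names is not reported here. Gap copies were found with megablast and gaps taken from RefSeq ASM294v3. Other orientation, background, normalization, centring, filters, spot summary, the deposited values and each array left out were tried.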

Additional observations from a re-analysis of the deposited data

Results flagged for a closer look

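Of the 11 further features named longIGR whose names end in the word missing, and which no comparison used, 3 gave a ratio with likely immunoprecipitate signal above the negative-control limit. That of SPAC806.09c had a log2 ratio of 0.54 on replicate 2, that of SPCC1259.02c had 0.016 on replicate 2, and that of SPBC8E4.03 had -0.32 on replicate 1 from 1 spot of 36615 units. What DNA these spots hold was not tested.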

How the results depend on the processing

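The 10 enriched calls became 0 with channel B over channel A and with the deposited values (2 and 13 members at an unadjusted p under 0.05 in limma). They became 3 with local background subtracted, where 9 of the 10 could be tested. With dim denominator features left out they became 2, but 4 of the 10 could be tested, SPAC1F8.08 and SPAC977.05c not among them. With 2 spots required on every array they became 2, the only 2 of the 10 that could be tested. The 2 depleted calls became 0 in the first 3 of these settings, 7 with normexp, 12 with intergenic and coding features centred separately, 5 with Spotfinder median intensities and 6 with rows centred. Of all features 13.7%, 4.65%, 9.19% and 3.96% were depleted in these last 4 settings, against 7.29%, 12.5%, 5.21% and 6.25% of members. Leaving out 1 array gave 2 to 10 enriched and 0 to 9 depleted members, with 2 and 0 without replicate 3. SPAC1F8.08 and SPAC977.05c kept their call without replicate 3 (adjusted p = 0.0189 and 0.0416), and SPBC32H8.02c and SPAP15E9.02c kept theirs when 2 spots were required (0.0157 and 0.0188), although the replicate 1 spots of SPBC32H8.02c disagreed (0.33 and 3.99). The class difference stayed negative in each ratio setting and was 0.37 in the deposited values, which are levels of 1 channel. Without 1 array it ranged from -0.60 to -0.32. The same-gene difference was -0.10 with channel B over channel A, -0.64 with local background subtracted, -0.34 with loess, -0.27 with dim denominators left out, -0.52 with features on 2 or more arrays, -0.094 in the deposited values, -0.27 with rows centred and -0.32 with 2 spots required, and it ranged from -0.46 to -0.41 without 1 array. The share measured was 89.1% when 2 arrays sufficed. Signs turned in the deposited values for sce3 (0.35), tgp1 (SPBC1271.09, 1.05), pfl7 (SPBC359.04c, 2.14), pfl4 (SPCC188.09c, 0.53) and mbx2 (SPBC317.01, 0.61), and with loess for pfl7 (SPBC359.04c, 0.044). A sign in the deposited values sets the level of 1 channel against the array median and is not that of a ratio. The causes of the changes across settings were not tested. Of 210 values of named members under these settings, 146 stayed on their side of the threshold, 58 of called members did not pass and 6 turned sign. Centring within blocks or rows, requiring 2 spots, comparing within rows or intensity bins, and the same-gene settings were chosen after seeing the data. No paired analysis was possible because the 3 arrays form 1 group.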
